A study of Mus musculus with 10 samples.

Results

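The A1cf-Lipo neighbourhood is a stretch of mouse chromosome 19 that holds Prkg1, A1cf, Asah2, Sgms1, Rnls, Lipo5, Lipo4, Lipo3 and Lipo2. These 9 genes were taken by their symbols from a count table of 57185 genes with values, of which 30640 had at least 1 count in some mouse. They were chosen by place, and by the counts of A1cf and Lipo2 in the 2 genotypes in earlier results of the same table, so their genotype differences are given here as a description, with no test. All 9 had at least 1 count in some mouse, and 5 of the 9 (Prkg1, Asah2, Sgms1, Rnls and Lipo3) had more than 10 counts in at least 6 of the 10 mice, the count filter that the study used.

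RNA was sequenced from apical ventricular tissue of 5 MLPKO and 5 MLPKO-cRADKO mice, 1 library per mouse. Csrp3 encodes muscle LIM protein, without which MLPKO hearts dilate and fail. All 10 mice were male, carried the Csrp3 knockout and floxed Rrad alleles (RAD fl/fl), and received 1 dose of tamoxifen, 100 mg per kg, at 10 weeks of age. Tissue was taken 1 month later, at 16 weeks by the sample labels and at a slightly younger age by the methods of the study. MLPKO-cRADKO mice also carried the MYH6-MerCreMer transgene, in which the promoter of the cardiac myosin gene Myh6 drives a tamoxifen-dependent Cre recombinase in cardiomyocytes, so that Rrad, which encodes the calcium channel inhibitor RAD, is deleted there. No mouse carried the transgene without the deletion, so effects of the transgene, of Cre and of the loss of RAD cannot be told apart in these data. A transgene of this kind has been mapped to the A1cf region by others, which is background only: the count table does not hold an insertion site.

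The 9 genes have unlike roles and share a place. A1cf encodes an RNA-binding protein that guides the cytidine deaminase APOBEC1 to apolipoprotein B messenger RNA and is known from liver and intestine. The Lipo genes belong to the family of acid lipases around lysosomal and gastric lipase. Prkg1 encodes cGMP-dependent protein kinase I, which relays nitric oxide and natriuretic peptide signals, Asah2 encodes neutral ceramidase, Sgms1 encodes a sphingomyelin synthase, and Rnls encodes the flavoprotein renalase.

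On GRCm39 with GENCODE M39, Prkg1 lies at chr19:30541889-31742479 on the minus strand, and A1cf follows at chr19:31846164-31926395 on the plus strand. Asah2 (chr19:31959997-32085620), Sgms1 (chr19:32097497-32367505) and Rnls (chr19:33115147-33369665) come next, all on the minus strand. The Lipo genes lie beyond Rnls, also on the minus strand, in the order Lipo5 (chr19:33437009-33450591), Lipo4 (chr19:33475437-33495180), Lipo3 (chr19:33532557-33739351) and Lipo2 (chr19:33697070-33728759), with Lipo2 inside the span of Lipo3. Lipo5 is annotated as an unprocessed pseudogene and the other 8 as protein coding. The 9 genes span 3197463 bases, and A1cf and Lipo4 are 1549041 bases apart.

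The sequences just before the starts of the Lipo genes are shown because Lipo2 and Lipo4 stood apart between the genotypes while Lipo3 did not. Lipo5 had 0 to 2 counts per mouse, too few to tell. Each is the 250 bases before the start of the canonical transcript, 5′ to 3′ on the strand of the gene, read from GRCm39. The windows are chr19:33728760-33729009 for Lipo2, chr19:33495181-33495430 for Lipo4 and chr19:33450592-33450841 for Lipo5, all minus strand. Capitals in Lipo4 and Lipo5 mark bases that are not the same in an alignment with Lipo2.
Lipo2: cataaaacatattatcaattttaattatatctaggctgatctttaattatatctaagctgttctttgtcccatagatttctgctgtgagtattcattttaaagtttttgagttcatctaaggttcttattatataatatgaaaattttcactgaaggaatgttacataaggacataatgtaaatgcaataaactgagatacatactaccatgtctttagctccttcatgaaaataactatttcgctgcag
Lipo4: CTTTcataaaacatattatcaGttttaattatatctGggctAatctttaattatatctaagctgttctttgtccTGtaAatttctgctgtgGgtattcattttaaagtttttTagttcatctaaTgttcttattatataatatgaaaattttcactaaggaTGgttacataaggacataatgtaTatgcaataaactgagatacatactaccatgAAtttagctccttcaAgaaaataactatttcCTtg
Lipo5: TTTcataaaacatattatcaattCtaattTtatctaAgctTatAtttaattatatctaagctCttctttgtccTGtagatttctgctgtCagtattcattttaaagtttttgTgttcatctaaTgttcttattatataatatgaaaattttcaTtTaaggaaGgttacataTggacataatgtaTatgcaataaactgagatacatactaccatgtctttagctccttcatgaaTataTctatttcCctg
The Lipo2 and Lipo4 windows were identical at 229 of 254 aligned positions (90.2%). Lipo5 was as close to Lipo2 (90.1%) as Lipo4 was. Whether these sequences have a part in the counts was not tested. The same window of Lipo3, chr19:33567789-33568038, was 44.4% identical to that of Lipo2. It lies inside the span of Lipo3, which extends further upstream, so it stands for the canonical transcript only. It overlaps 1 annotated exon, against 0 for the windows of Lipo2, Lipo4 and Lipo5.

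The window before A1cf, chr19:31845914-31846163 on the plus strand, is shown for the gene that was at 0 counts in every MLPKO mouse.
A1cf: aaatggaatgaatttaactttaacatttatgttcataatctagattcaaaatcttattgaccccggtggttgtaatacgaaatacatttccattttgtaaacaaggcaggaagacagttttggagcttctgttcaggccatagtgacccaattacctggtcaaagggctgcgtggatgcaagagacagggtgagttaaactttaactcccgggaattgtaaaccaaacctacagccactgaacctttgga
Neither the TATA box TATAAA nor the GATA motif AGATAA, searched on both strands, was found in the windows of A1cf, Lipo2 or Lipo4. The same held for the windows of Lipo3, Prkg1, Asah2 and Sgms1, while that of Rnls held TATAAA 2 times. AGATAA was found once in the Lipo5 window and 2 times in that of 9130016M20Rik, a transcript just beyond A1cf. Among 21757 promoter windows of the same length, all of protein-coding genes, 11.9% held TATAAA and 9.61% held AGATAA.

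A stretch shared by the coding sequences of Lipo2 and Lipo3 is shown, because reads from such stretches cannot be placed on 1 gene. The coding sequences of Lipo2 and Lipo3 were identical at 1169 of 1197 aligned positions (97.7%), those of Lipo2 and Lipo4 at 95.6% and those of Lipo3 and Lipo4 at 94.7%. Lipo2 and Lipo4 shared a longer stretch without a mismatch, 193 bases from base 939 to base 1131 of Lipo2, which is not printed. The longest stretch that Lipo2 shared with Lipo3 without a mismatch ran over 173 bases, from base 37 to base 209 of the coding sequence of Lipo2.
Lipo2 and Lipo3, shared: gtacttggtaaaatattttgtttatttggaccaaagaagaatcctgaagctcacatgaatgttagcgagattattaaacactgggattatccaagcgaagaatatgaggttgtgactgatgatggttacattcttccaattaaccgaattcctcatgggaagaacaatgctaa
Of all stretches of 100 bases in the Lipo2 transcript, 8.59% were also found in the Lipo3 transcript and 14.1% in the Lipo4 transcript. Over stretches of 50 bases these shares were 25.7% and 33.8%, and over stretches of 150 bases 1.18% and 3.59%. Of the stretches of 50 bases in the Lipo4 transcript, 34.2% were also found in Lipo2. Lipo2 and Lipo3 share no exonic base in the annotation although their spans overlap, and how the authors treated reads that fit more than 1 gene is not given in the sources used here.

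The total count per library lay between 33457406 and 49965101. In the genotype comparison across all 30640 genes with at least 1 count, edgeR's quasi-likelihood test with Benjamini-Hochberg adjustment called 434 genes (1.42%), 165 higher (0.539%) and 269 lower (0.878%) in MLPKO-cRADKO. This count moved with the fit, from 227, 232 and 261 without MLPKO-cRADKO mouse 5, 4 or 3 and 252 without MLPKO mouse 5 to 993 without MLPKO mouse 4, and was 1168 with DESeq2, so shares set against it are rough. Over the same genes, the normalized counts of the groups did not overlap for 1.45% in the higher and 1.84% in the lower direction. Csrp3 had 37847 to 102895 counts in MLPKO and 25287 to 39341 in MLPKO-cRADKO, and Rrad had 6123 to 12769 and 6179 to 7763. The table gives 1 count per gene, so the deleted parts of these genes could not be read apart from the rest. Rrad, the gene deleted in cardiomyocytes only, differed by -0.38 ± 0.16 on the log2 scale (SE, edgeR adjusted p = 0.331). Myh6, whose promoter drives the transgene, had a mean of 36158 ± 2638 CPM (counts scaled by the TMM-normalized library size) in MLPKO and 29667 ± 3268 in MLPKO-cRADKO (SD, n = 5 each), a log2 difference of -0.29 ± 0.10 (SE, edgeR adjusted p = 0.216).

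Of the 9 genes, A1cf, Lipo2 and Lipo4 had higher normalized counts in every MLPKO-cRADKO mouse than in any MLPKO mouse. Over all genes this held for 1.45%. The counts of A1cf and Lipo2 in the genotypes were part of the choice of these 9 genes, so 3 of 9 is not read as an excess. The other 6 overlapped between the groups, and none was lower without overlap, against 1.84% over all genes.

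**Figure D1:**
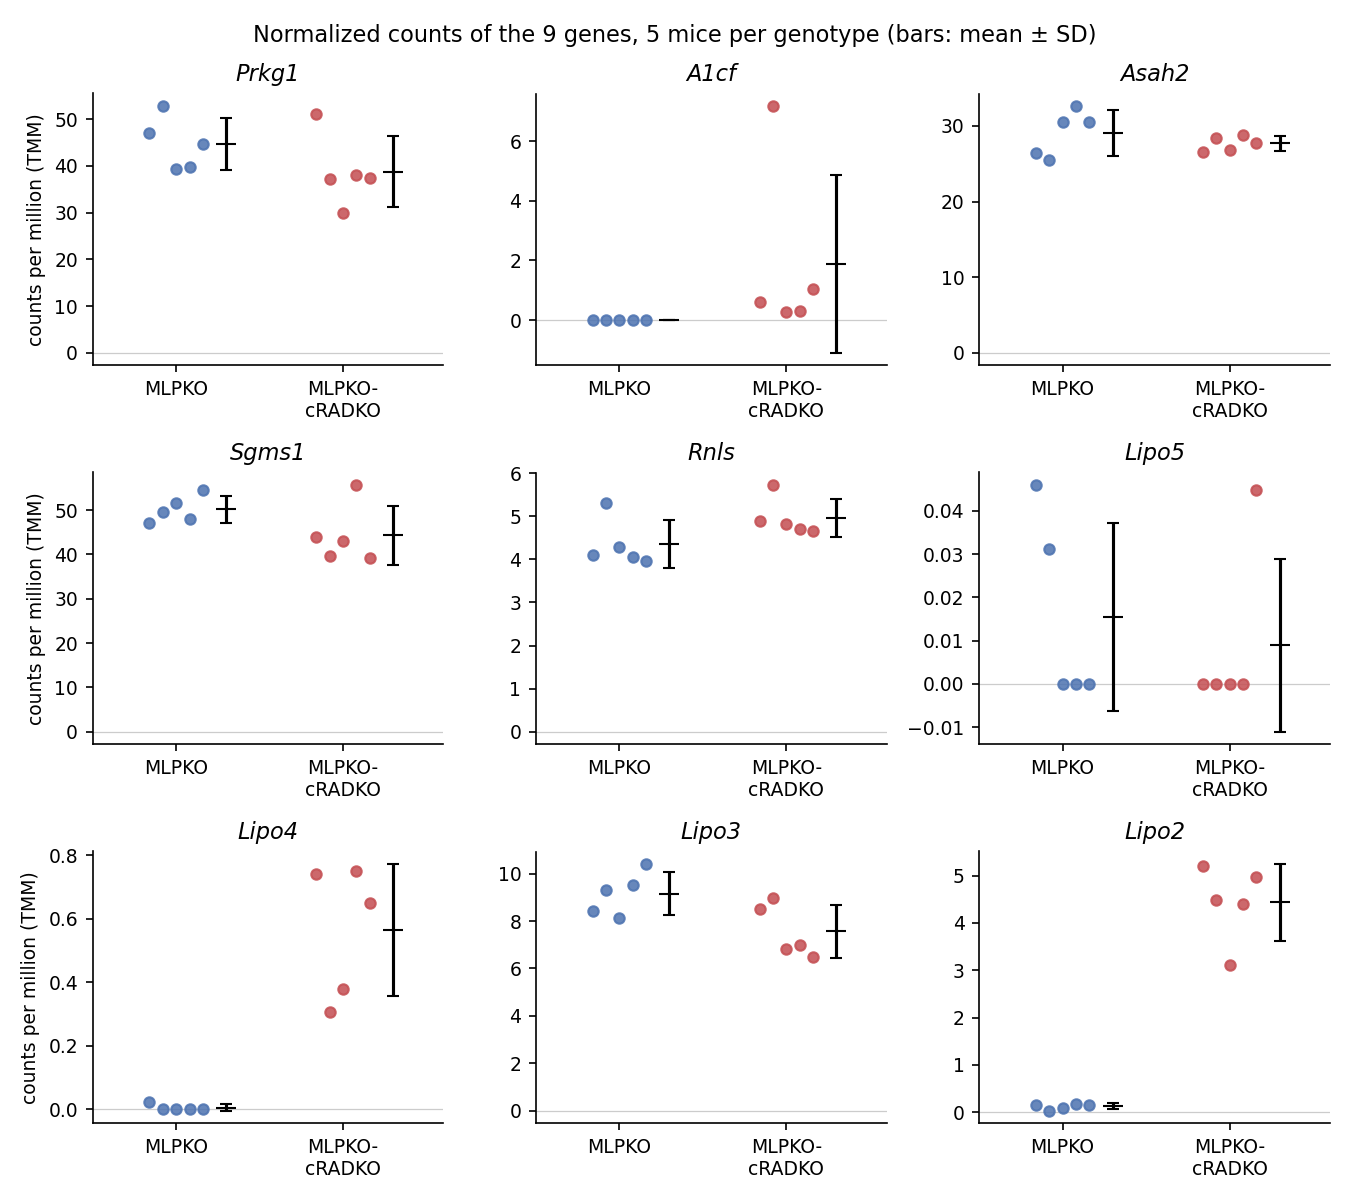
CPM (vertical axes, each panel from 0 with its own scale) of the 9 genes in 5 MLPKO (blue) and 5 MLPKO-cRADKO (red) mice, in their order along the chromosome. Points are mice and black bars are the mean ± SD of 5 mice, which can reach below 0 where 1 mouse stands far above the rest. The groups are apart in the panels of A1cf, Lipo4 and Lipo2 and overlap in the other 6.

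A1cf was at 0 counts in all 5 MLPKO mice. The MLPKO-cRADKO mice 1 to 5 had 20, 329, 10, 14 and 47 counts. Each mouse of this group was thus above the floor of 3 counts per library, and mouse 2 stood far above the other 4. The mean in MLPKO-cRADKO was 1.88 ± 2.98 CPM (SD, n = 5), at least 25.7-fold higher than 3 counts in each MLPKO library would give. Without mouse 2 the mean was at least 7.59-fold higher. Mouse 2 held 76.4% of the summed normalized counts of its group, and its value was 12.2 times the group's median. Over all genes, 9 of 30640 (0.0294%) had 0 counts in every MLPKO mouse and at least 1 in every MLPKO-cRADKO mouse, and A1cf was the single gene (0.00326%) with at least 10 in each. This share is given for scale, since A1cf was chosen for its difference.

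2 annotated transcripts lie on the strand of A1cf, within it or just beyond it. 9130016M20Rik, a long non-coding RNA at chr19:31927484-31929761, begins beyond the end of A1cf, with 1088 bases between them. It had 0 counts in all 5 MLPKO mice and 16, 137, 0, 14 and 20 counts in MLPKO-cRADKO mice 1 to 5. Mouse 3 of MLPKO-cRADKO was therefore as low as the MLPKO mice and mouse 2 was again the highest, with 70.9% of the group's sum. The mean of MLPKO-cRADKO was at least 11.5-fold higher than 3 counts per MLPKO library would give, and at least 4.2-fold higher without mouse 2. edgeR called it higher (adjusted p = 0.0176, and 0.00449 to 0.0454 when each mouse was left out in turn). This call is not independent of A1cf, which it follows over the mice (r = 0.978), and it passed the minimum of 1 count only through MLPKO-cRADKO. It did not reach the count minimum of the study's filter.

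Gm19241, a processed pseudogene at chr19:31891044-31891951 in an intron of A1cf, was looked up after its values were seen. It had 2 counts in MLPKO mouse 4 and 0 in the other 4. In MLPKO-cRADKO mice 1 to 5 it had 4, 28, 4, 0 and 10 counts. Mouse 2 was the highest here as well, and mouse 4 was at 0, so the groups overlapped. Its ratio over the pooled counts was 23.4 (95% exact binomial interval 6.12 to 199), and edgeR did not call it (adjusted p = 0.0878). With A1cf, Gm19241 and 9130016M20Rik added together, the MLPKO mice had at most 2 counts and the MLPKO-cRADKO mice 40, 494, 14, 28 and 77.

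Intervals on ratios of counts cover counting error only. Of the values from 1 to 20 counts, 73.7% to 80.3% were even in each library, against 51.0% to 56.5% of those over 1000, so low counts may not be independent and the intervals may be too narrow.

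The Lipo genes, the family of acid lipases at the far end, did not follow mouse 2. Lipo2 had 7, 1, 5, 7 and 7 counts in MLPKO mice 1 to 5. It had 176, 205, 115, 200 and 222 counts in MLPKO-cRADKO mice 1 to 5. All 5 values of the second group lay far above those of the first, and mouse 2 held 20.2% of the group's normalized sum, about its equal part. The means were 0.126 ± 0.0614 CPM in MLPKO and 4.44 ± 0.813 in MLPKO-cRADKO (SD, n = 5 each), with a log2 fold change of 5.08 (standard error 0.30).

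Lipo4 had 1 count in MLPKO mouse 1 and 0 in the other 4. It had 25, 14, 14, 34 and 29 counts in MLPKO-cRADKO mice 1 to 5. The groups did not overlap, and mouse 2 had the lowest normalized value of its group, 0.306 CPM against 0.749 in mouse 4. The pooled ratio, 116 counts against 1, was 118 (95% exact binomial interval 20.8 to 4698). The width of this interval comes from the single MLPKO count. How many of the Lipo4 counts come from Lipo2 reads was not tested.

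Lipo3, the Lipo gene with the most counts, had 366, 299, 411, 362 and 477 counts in MLPKO mice 1 to 5. It had 287, 411, 253, 317 and 290 counts in MLPKO-cRADKO mice 1 to 5. The groups overlapped, with a lower mean in MLPKO-cRADKO. In CPM, the means were 9.16 ± 0.912 and 7.56 ± 1.11 (SD, n = 5 each), a log2 fold change of -0.28 (standard error 0.12). Lipo5 had 2 and 1 counts in MLPKO mice 1 and 2, 2 counts in MLPKO-cRADKO mouse 5 and 0 in the other 7, so no fold is given.

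Counts of Lipo2, Lipo3 and Lipo4 were also added, because their coding sequences are so alike. The sum was 8.23 to 10.6 CPM in MLPKO and 10.3 to 14.4 in MLPKO-cRADKO, and these ranges overlapped. Its mean was 9.29 ± 0.921 in MLPKO and 12.6 ± 1.61 in MLPKO-cRADKO (SD, n = 5 each), a ratio of 1.35. Lipo2 took 0.333% to 1.90% of the 3 genes' counts in MLPKO and 30.1% to 41.0% in MLPKO-cRADKO. Lipo3 took 97.9% to 99.7% and 53.6% to 66.2%. The composition of the Lipo counts thus differed far more between the groups than their sum did. How many reads given to Lipo2, Lipo3 or Lipo4 come from another of these genes was not tested.

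**Figure D2:**
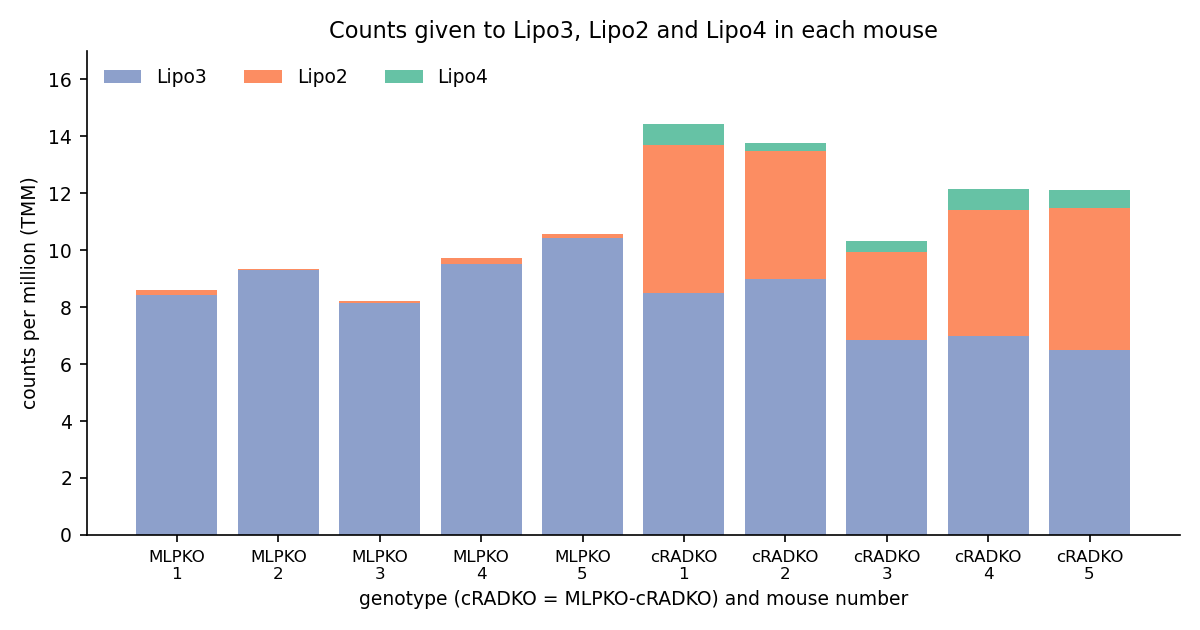
CPM (vertical axis) given to Lipo3, Lipo2 and Lipo4, stacked, in each of the 5 MLPKO and 5 MLPKO-cRADKO mice (horizontal axis). Lipo2 is a thin band, at most 1.90% of the stack, in MLPKO and 30.1% to 41.0% of it in MLPKO-cRADKO, while the height of the stack lies between 8.23 and 14.4 in all mice.

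Within MLPKO-cRADKO, the spread over mice thus differed between A1cf, where mouse 2 stood far above the rest, and the Lipo genes. The coefficient of variation over the 5 mice was 158% for A1cf, 18.3% for Lipo2, 36.9% for Lipo4 and 14.6% for Lipo3. A relation across 5 mice of 1 genotype was not tested.

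**Figure D3:**
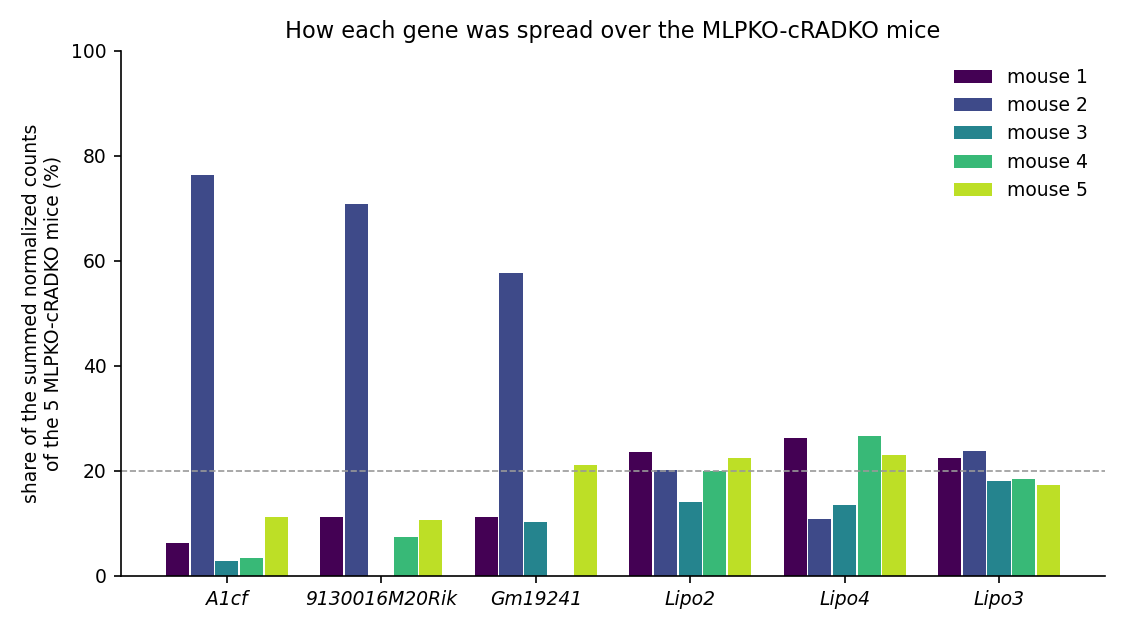
Share of each gene's summed normalized counts (vertical axis, percent) that each of the 5 MLPKO-cRADKO mice held, for 6 transcripts (horizontal axis). The dashed line at 20% is an equal part. Mouse 2 held 76.4%, 70.9% and 57.6% of A1cf, 9130016M20Rik and Gm19241, and 20.2%, 10.8% and 23.8% of Lipo2, Lipo4 and Lipo3.

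The 4 genes between and beside these had counts of 154 or more in every mouse and overlapped between the genotypes. Prkg1, on the side of A1cf away from the Lipo genes, had 2046, 1700, 1987, 1511 and 2044 counts in MLPKO mice 1 to 5. It had 1724, 1704, 1106, 1731 and 1672 in MLPKO-cRADKO mice 1 to 5. Mouse 3 of MLPKO-cRADKO had the lowest count, and the means were 44.7 ± 5.61 and 38.8 ± 7.64 CPM (SD, n = 5 each). The log2 fold change of this kinase gene was -0.21 (standard error 0.12).

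Asah2 starts 33601 bases beyond the end of A1cf. It had 1146, 818, 1543, 1241 and 1397 counts in MLPKO mice 1 to 5. It had 898, 1302, 993, 1310 and 1240 in MLPKO-cRADKO mice 1 to 5. Neither group stood above the other, at 29.1 ± 3.06 and 27.7 ± 0.993 CPM (SD, n = 5 each) and a log2 fold change of -0.07 (standard error 0.08). In mouse 2, where A1cf was highest, this ceramidase gene was within the range of its group.

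Sgms1 had 2045, 1591, 2612, 1820 and 2500 counts in MLPKO mice 1 to 5. It had 1482, 1812, 1593, 2527 and 1755 in MLPKO-cRADKO mice 1 to 5. Mouse 4 of MLPKO-cRADKO was the highest of all 10 after normalization, and the other 4 of its group lay below every MLPKO mouse. The means were 50.1 ± 3.03 and 44.3 ± 6.68 CPM (SD, n = 5 each), and the log2 fold change of this sphingomyelin synthase gene was -0.18 (standard error 0.09).

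Rnls had 178, 171, 217, 154 and 182 counts in MLPKO mice 1 to 5. It had 165, 262, 178, 213 and 208 in MLPKO-cRADKO mice 1 to 5. In both groups mouse 2 was the highest after normalization, and the groups overlapped through MLPKO mouse 2. The means were 4.35 ± 0.556 and 4.95 ± 0.442 CPM (SD, n = 5 each), with a log2 fold change of 0.19 (standard error 0.14) for this renalase gene.

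Levels of the 9 genes were compared with each other per kilobase of annotated exon. In MLPKO the order by mean CPM per kilobase was Prkg1 (4.04 ± 0.506), Rnls (2.72 ± 0.348), Sgms1 (2.67 ± 0.162), Asah2 (2.42 ± 0.255), Lipo3 (1.40 ± 0.139) and Lipo2 (0.0435 ± 0.0213), followed by Lipo5, Lipo4 and A1cf near or at 0 (SD, n = 5). Rnls and Sgms1 overlapped over mice, as did Sgms1 and Asah2, while Prkg1 was apart from Rnls, Asah2 from Lipo3 and Lipo3 from Lipo2. In MLPKO-cRADKO, Lipo2 (1.54 ± 0.282) stood below the 4 genes Prkg1, Rnls, Sgms1 and Asah2 and above Lipo3 (1.15 ± 0.169) in each of the 5 mice although the ranges over mice overlapped. This order rests on the length used, since the exons of all Lipo3 transcripts merge to 6560 bases. With the canonical transcripts, 2184 bases for Lipo2 and 2922 for Lipo3, the levels were 2.03 ± 0.372 and 2.59 ± 0.379 and Lipo3 was above Lipo2 in 4 of the 5 mice. Over merged exons, A1cf (0.499 ± 0.792) came after Lipo3 and was above Lipo4 (0.244 ± 0.0900) in 1 of the 5 mice only. In mouse 2, A1cf was at 1.91, above the highest merged-exon value of Lipo2 (1.80). It was not above the levels of Lipo2 over the canonical transcript, which were 1.42 to 2.39.

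The other annotated genes around these 9 were compared to see how far along the chromosome a difference reached. From 1000000 bases before Prkg1 to 1000000 bases after Lipo3 there were 127 further annotated genes, of which 53 had at least 1 count. edgeR called 2 of the 53 (3.77%, against 1.42% over all genes), 9130016M20Rik and Acta2, both higher, and none lower. As given above, 9130016M20Rik entered the test only through MLPKO-cRADKO and followed A1cf over the mice. Its call is thus not independent of that gene, and the share is not read as an excess. Papss2, which makes the sulfate donor of the cell, was higher and Ifit1bl1 was lower without overlap between the groups, 2 of 53 (3.77%, against 3.29% over all genes). Neither was called by edgeR (adjusted p = 0.0821 and 0.194), and both were named after their values were seen.

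Of the further genes with a mean of at least 10 counts, 8 lie between A1cf and Lipo5. 9130016M20Rik was called, 1 of the 8, where 2.73% of all 15742 genes with such a mean were called, and the log2 fold changes of the other 7 lay between -0.34 and 0.36. The call of 9130016M20Rik is not independent of A1cf, so 1 of 8 is not read as an excess. The 3 protein-coding members of the stretch, Asah2, Sgms1 and Rnls, differed by no more than 0.19 on the log2 scale, as given above.

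The nearest further genes with at least 10 counts in every mouse lay well away from A1cf. Before it, across 781694 bases, Cstf2t, which encodes a 3′ end processing factor, had means of 28.5 ± 2.20 CPM in MLPKO and 28.2 ± 1.96 in MLPKO-cRADKO (SD, n = 5 each, edgeR adjusted p = 0.969). After it, Sgms1os1 had means of 2.04 ± 0.482 and 1.62 ± 0.480 (edgeR adjusted p = 0.495). Beside the Lipo genes, 2810449D17Rik lay 37934 bases before Lipo5 with 0.408 ± 0.101 and 0.419 ± 0.0487 CPM (edgeR adjusted p = 0.983). Stambpl1 lay 429625 bases after Lipo3 with 1.98 ± 0.318 and 2.07 ± 0.261 (edgeR adjusted p = 0.912). None of the 4 was called.

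Acta2, the smooth muscle actin gene at chr19:34217737-34232990, had 3479, 2662, 1539, 2467 and 3193 counts in MLPKO mice 1 to 5 and 5288, 10443, 6121, 6671 and 3547 in MLPKO-cRADKO mice 1 to 5. edgeR called it higher, with a log2 fold change of 1.25 ± 0.24 (SE, adjusted p = 0.0107), and the groups overlapped. Of 4 other smooth muscle markers, Myh11, Cnn1, Smtn and Tagln, none was called, and their summed level was 138 to 186 CPM in MLPKO and 143 to 168 in MLPKO-cRADKO. Inside Lipo3, the unprocessed pseudogene Gm8980, named after its values were seen, had 1 count over all MLPKO mice and 21 over all MLPKO-cRADKO mice (edgeR adjusted p = 0.190). Lipo1, which begins 24138 bases beyond Lipo2, was at 0 counts in all 10 mice.

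**Figure D4:**
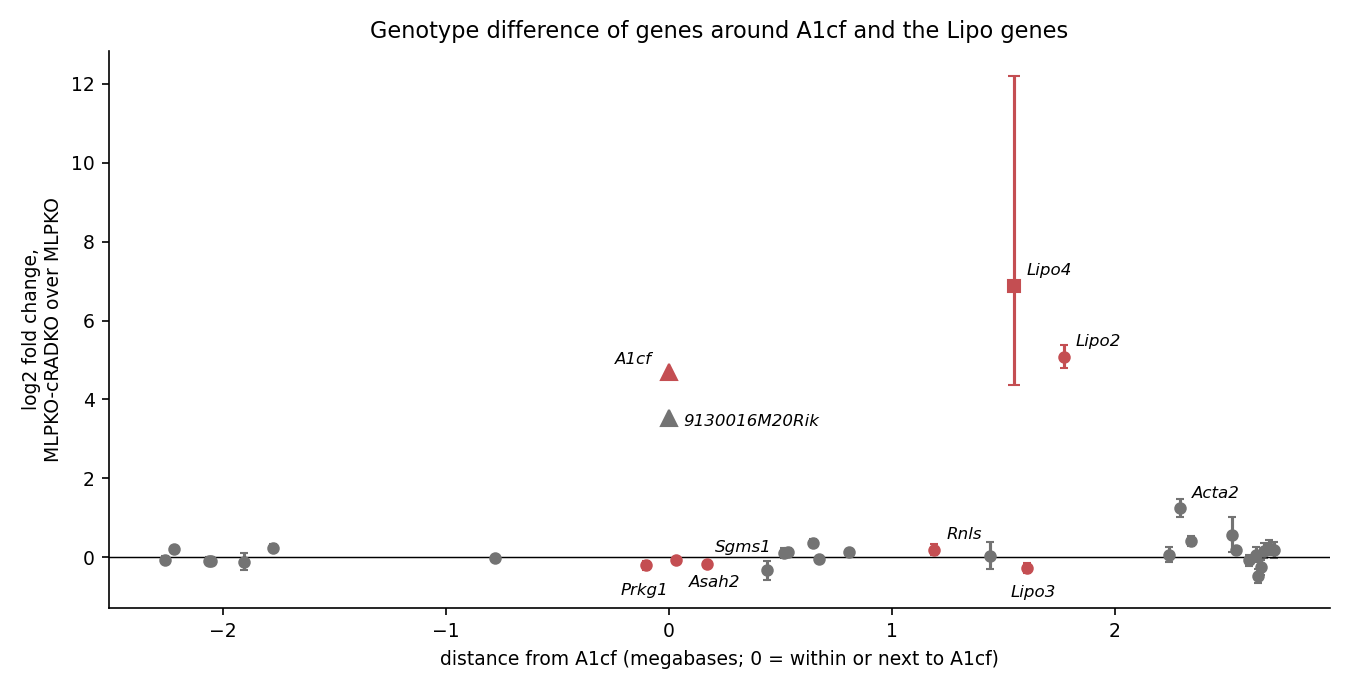
Log2 fold change of MLPKO-cRADKO over MLPKO (vertical axis) of genes with a mean of at least 10 counts, against distance from A1cf in megabases (horizontal axis), with 8 of the 9 chosen genes in red and further genes in grey. Circles are edgeR estimates ± standard error, triangles are lower bounds against 3 counts per library (A1cf, 9130016M20Rik), and the square is the ratio of pooled counts of Lipo4 with its 95% exact binomial interval. A1cf, 9130016M20Rik, Lipo4, Lipo2 and Acta2 stand above the rest, which lie near 0.

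A1cf is known from liver, intestine and kidney, so defining markers of other tissues were looked at in each group. The 5 hepatocyte markers, Alb, Apoa1, Ttr, Serpina1a and Fgb, summed to 0.132 to 0.415 CPM in MLPKO and 0 to 0.963 in MLPKO-cRADKO. The 4 kidney tubule markers summed to 0.0396 to 0.187 and 0 to 0.219, with Umod at 0 in all mice. The 4 intestinal markers summed to 1.59 to 4.44 and 2.08 to 6.35, with Fabp2 at 0 in all mice. None of these markers was called, and all 3 sums overlapped between the groups. Bulk counts cannot tell a few cells with much of a transcript from many cells with little. Of 7 ventricular cardiomyocyte markers, Tnnt2 was called lower and none higher, and they summed to 65125 to 74848 CPM in MLPKO and 50627 to 62112 in MLPKO-cRADKO. Adipocyte markers reached 25.7 CPM in MLPKO-cRADKO mouse 3 and atrial markers 24.2 in mouse 1, and fast skeletal muscle markers were at 2.21 or less in all mice. In MLPKO-cRADKO mouse 2, where A1cf was at 7.19 CPM, the sums of the kidney tubule (0.219) and fast skeletal muscle (1.68) markers were the highest of their group. MLPKO mice, with A1cf at 0, reached 0.187 and 2.21, and the kidney tubule sums were near 0 in both groups. The hepatocyte sum was highest in mouse 5, the intestinal and cardiomyocyte sums in mouse 4, the atrial sum in mouse 1, and the adipocyte and smooth muscle sums in mouse 3. The part of these markers in the results was not tested.

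Genes that work with the 9 were counted in 5 lists. Over all genes tested 1.42% were called, so calls are few in any list of this size. Of 11 genes of RNA editing with A1CF, all had counts and none was called in either direction, with a median log2 fold change of -0.03 against 0.02 over all genes tested. Apobec1, the deaminase that A1CF guides, had 128 to 184 counts in MLPKO and 131 to 228 in MLPKO-cRADKO. Its log2 fold change was 0.36 (standard error 0.19, edgeR adjusted p = 0.439). Rbm47, another cofactor of APOBEC1, had 10 to 46 and 16 to 54 counts (edgeR adjusted p = 0.455). Apobec2, the muscle member of the deaminase family and the one with the most counts in the list, had 172 ± 19.6 and 159 ± 8.45 CPM (SD, n = 5 each) and was not called.

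Of 6 acid lipase genes, Lipa and Lipf had counts, and neither was called. Lipa, lysosomal acid lipase, had 23.9 ± 2.05 CPM in MLPKO and 27.1 ± 3.16 in MLPKO-cRADKO (SD, n = 5 each, edgeR adjusted p = 0.409), while Lipf had 2 counts in all. Of 8 genes listed as neutral lipases or their partners, none was called, with a median log2 fold change of 0.07. Lpl, lipoprotein lipase, had the most counts of these, 4400 ± 742 and 4603 ± 546 CPM (edgeR adjusted p = 0.839).

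Of 27 genes of ceramide and sphingomyelin turnover, 25 had counts and none was called, with a median log2 fold change of 0.03. Asah1, acid ceramidase, had 31.8 ± 1.87 and 34.2 ± 3.93 CPM (SD, n = 5 each, edgeR adjusted p = 0.559). Sgms2, the sphingomyelin synthase of the cell surface, had 2.42 ± 0.940 and 2.57 ± 1.11 (edgeR adjusted p = 0.928). Smpd1, acid sphingomyelinase, had the most counts, with 172 ± 17.8 and 168 ± 17.1 (edgeR adjusted p = 0.896).

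Of 18 genes of cGMP signalling around Prkg1, 1 was called higher and none lower, with a median log2 fold change of 0.10. Over all genes 0.539% were called higher, so a single call among 18 is little to read from. It was Rgs2, a regulator of G protein signalling. Its counts were 366 to 646 in MLPKO and 684 to 1536 in MLPKO-cRADKO, and the groups overlapped after normalization. Its log2 fold change was 0.92 (standard error 0.19, edgeR adjusted p = 0.0171), and the adjusted p was 0.0534 without MLPKO-cRADKO mouse 4. The call was also lost, at the same fold change of 0.92, with the study's count filter (adjusted p = 0.0545), with filterByExpr (0.0567) and without predicted genes (0.0516). Gucy1a1, a subunit of the nitric oxide receptor, had 16.9 ± 1.53 and 21.4 ± 2.65 CPM (SD, n = 5 each, edgeR adjusted p = 0.0950). Npr3, the clearance receptor of natriuretic peptides, had 54.2 ± 22.8 and 36.5 ± 5.87 (edgeR adjusted p = 0.163). Pln, phospholamban, had the most counts of the list and a log2 fold change of -0.11 (edgeR adjusted p = 0.590).

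Genes whose pattern over the 10 mice was most like that of A1cf and of Lipo2 were looked up among 15742 genes with a mean of at least 10 counts, by Pearson's r of log2(CPM + 0.5). These values describe 10 libraries that fall into 2 genotypes, and 5 of the 10 values of A1cf are 0 counts. MLPKO-cRADKO mouse 2 stands far above the rest for A1cf, at 7.19 CPM with the next mouse at 1.05. How far the correlations with A1cf rest on that mouse was not tested. For A1cf the 5 genes were 9130016M20Rik (r = 0.978), Trim56 (r = 0.949), Gm30108 (r = 0.938), Creb1 (r = 0.929) and Nsd3 (r = 0.928), of which the first lies beside it and the others on further chromosomes. For Lipo2 they were Ano10 (r = 0.982), Gm34455 (r = 0.976), Cfap20 (r = 0.974), Lipo4 (r = 0.956) and Sh3bp4 (r = 0.954), of which Lipo4 alone is on chromosome 19. Neither A1cf nor Lipo2 was among the 5 of the other.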

How the data were processed

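RNA from ventricles of 10 mice was measured by poly(A) RNA sequencing. The authors used FastQC, STAR on GRCm39 and featureCounts, and deposited 1 raw count per gene and mouse. Versions and the settings for strand, pairs and reads that fit several genes are not given in the sources used here. Of 60676 rows, 3491 held no value and were left out.

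Genes were placed by GENCODE M39 on GRCm39. Counts were normalized by TMM, and genotypes (5 mice each, from the labels) were compared in edgeR 4.0.16 (R 4.3.3, quasi-likelihood fit) over all 30640 genes with at least 1 count, with Benjamini-Hochberg adjustment and a threshold of 0.05. No genes were filtered, since the study's filter removes 4 of the 9 genes. DESeq2 1.42.0, RLE scaling, count filters and leaving out each mouse were alternatives. A fold against a group at 0 was set against 3 counts per library. p-values weigh the genotype difference against the spread between mice.

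The 9 genes and the gene lists were chosen with earlier results of these data known. Genes named beside them were those called in the window, the nearest with at least 10 counts in every mouse, in each list those called and that with the most counts, partners of the 9, and the 5 most alike in pattern. The other genes of the lists and the window enter the counts without being named. No batch is given in the labels. The count alternatives over summed Lipo genes and summed A1cf transcripts, and the levels over canonical transcripts, were chosen after seeing the data.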

Additional observations from a re-analysis of the deposited data

Results flagged for a closer look

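In groups of 5 mice, a mouse was picked out when its gap to the nearest other mouse exceeded 0.71 of the group's range, which chance gives in about 1 of 20 groups. Of 30 groups of the 9 genes, their neighbours and the check genes, 9 held such a mouse. In MLPKO-cRADKO mouse 2, A1cf was at 7.19 CPM, with the next mouse at 1.05, and 9130016M20Rik was at 3.00, with the next mouse at 0.474. In MLPKO-cRADKO mouse 4, Sgms1 was at 55.7 CPM, with the next at 43.9. Rnls was highest in mouse 2 of both genotypes, at 5.32 CPM in MLPKO and 5.73 in MLPKO-cRADKO. The remaining 4 rest on 1 or 2 counts in a mouse of a group otherwise at 0, which were Lipo4 in MLPKO mouse 1 (0.0230 CPM), Lipo5 in MLPKO-cRADKO mouse 5 (0.0448), Gm19241 in MLPKO mouse 4 (0.0526) and Gm8980 in MLPKO mouse 2 (0.0311).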

How the results depend on the processing

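The directions of the 8 gene differences with a fold held in every alternative in which the gene itself was computed. For A1cf and Lipo4 these were RLE scaling and leaving out each mouse only, and for A1cf also the sum with Gm19241 and 9130016M20Rik. Lipo2 did not pass the study's count filter. The sum of Lipo2, Lipo3 and Lipo4 was higher in MLPKO-cRADKO, where Lipo3 alone was lower. The log2 bound of A1cf was 4.69 and ranged from 2.92 (without MLPKO-cRADKO mouse 2) to 4.96 when each mouse was left out, and the log2 ratio of Lipo4 was 6.88 and ranged from 6.48 to 7.06, where leaving out MLPKO mouse 1, which holds its single count, allows no ratio. The log2 fold change of Lipo2 was 4.67 with a prior count of 2, 4.89 to 5.23 when each mouse was left out, and 0.44 for the sum with Lipo3 and Lipo4. The range for Prkg1 was -0.32 to -0.12, for Asah2 -0.12 to -0.03, for Sgms1 -0.27 to -0.14, for Rnls 0.13 to 0.27 and for Lipo3 -0.35 to -0.23.

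Among the 53 neighbours, 1 was called higher with the study's count filter, with filterByExpr and without predicted genes, since these leave 9130016M20Rik out, 4 with DESeq2, which added Papss2 and Fas, and 2 to 3 (Gm19241 without MLPKO mouse 4) when each mouse was left out, with 0 lower. In the gene lists, 1 gene was called higher and 0 lower. These counts were 0 higher under both count filters and without predicted genes, 2 higher and 1 lower with DESeq2, and 0 to 3 higher and 0 to 2 lower when each mouse was left out (0 higher without MLPKO-cRADKO mouse 4, 3 higher and 2 lower without MLPKO mouse 4, 1 lower without MLPKO-cRADKO mouse 1). Myh6 had a log2 fold change of -0.29 with an adjusted p of 0.0266 in DESeq2. Csrp3, at -1.07 with an edgeR adjusted p of 0.0289, was not called with the study's filter (-1.08, adjusted p = 0.0666), with filterByExpr (-1.08, adjusted p = 0.0716) or without predicted genes (-1.08, adjusted p = 0.0710). It ranged from -1.22 to -0.75 when each mouse was left out, with 5 of the 10 fits calling it. Rrad ranged from -0.51 to -0.28 and Myh6 from -0.34 to -0.23, both uncalled in all 10. The cause of these changes was not tested where none is named. Over all genes, the count of calls was 434, 1168 with DESeq2 and 227 to 993 when each mouse was left out.

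Mouse numbers occur in both groups, but the correlation of deviations between same-numbered mice was -0.0297 to 0.128 and 1 of 5 mice was closest to its own number, so the numbers were not taken as pairs. With the replicate number as a block, 1620 genes were called over all genes, 4 neighbours higher and 1 lower (Ifit1bl1), 6 list genes higher and 2 lower, Myh6 (-0.29, adjusted p = 0.0283) and Rrad (-0.34, adjusted p = 0.0227).

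Depth limits A1cf, Lipo4, 9130016M20Rik and Gm19241, whose MLPKO counts were 0 to 2.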
